A study of Mus musculus with 15 samples.

Results

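The genes described here are 10 genes of the transforming growth factor beta (TGF-beta) system. They are the 3 ligand genes Tgfb1, Tgfb2 and Tgfb3, the 3 receptor genes Tgfbr1, Tgfbr2 and Tgfbr3, the latent TGF-beta binding protein genes Ltbp1 and Ltbp2, and Tgfb1i1 and Tgfbi, both named for their induction by TGF-beta 1. The members were chosen by name, through the Entrez Gene number that names each probe set. All 10 were found, with 1 probe set each, among 25206 probe sets. Expression was measured in 15 mouse samples on Affymetrix Mouse Gene 2.0 ST arrays, and values are log2 expression values as the authors deposited them.

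The cultured cells came from a mouse induced pluripotent stem cell (iPSC) line whose Acta2hrGFP reporter ties the fluorescence of a GFP to Acta2, which encodes smooth muscle actin. There were 3 samples each of undifferentiated iPSC (day 0), of mesodermal progenitors positive for Kdr (Flk-1) sorted at day 5, and of the GFP+ and the GFP- candidate smooth muscle cells sorted at day 13. The remaining 3 samples were primary aortic smooth muscle cells positive for the same reporter, the study's positive control. The labels name no second iPSC line, no genetic background, treatment, age or sex, and no Kdr- or unsorted group to set the sorted cells against. They call the samples biological triplicates without naming separate cultures or animals, so p-values measure the spread between these samples, which may be technical.

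TGF-beta ligands are secreted in a latent form, each held by its own cleaved propeptide, and latent TGF-beta binding proteins anchor that complex in the extracellular matrix until integrins, proteases or other factors release it. The released ligand binds a serine/threonine kinase receptor complex of Tgfbr2 and Tgfbr1, which phosphorylates Smad2 and Smad3, and the co-receptor betaglycan, encoded by Tgfbr3, presents ligand to it. In the vessel wall the pathway is known for driving the contractile programme of smooth muscle and the deposition of matrix, and defects in its ligands and receptors cause inherited aortic aneurysm in humans.

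Promoter sequences are shown for 4 genes, to set Tgfb1 and Tgfb2, which both rose at day 5, beside Ltbp2 and Tgfbi, which gave no call at day 5 and rose between day 5 and day 13 GFP+ cells. Each is the 250 bases before the start that the RefSeq promoter table of GRCm38.p6 gives for the gene, written on the gene's own strand. For Tgfb1 and Tgfbi that start is the outer end of the annotated gene, while for Ltbp2 it lies 67 bases and for Tgfb2 3708 bases inside it, so the Tgfb2 stretch lies within the annotated gene and other starts of these genes were not examined. Capitals mark matches of the motifs searched. Tgfb1 lies at chr7:25686752-25687001 on the plus strand, Tgfb2 at chr1:186705990-186706239 on the minus strand, Ltbp2 at chr12:84876492-84876741 on the minus strand and Tgfbi at chr13:56609336-56609585 on the plus strand.
Tgfb1: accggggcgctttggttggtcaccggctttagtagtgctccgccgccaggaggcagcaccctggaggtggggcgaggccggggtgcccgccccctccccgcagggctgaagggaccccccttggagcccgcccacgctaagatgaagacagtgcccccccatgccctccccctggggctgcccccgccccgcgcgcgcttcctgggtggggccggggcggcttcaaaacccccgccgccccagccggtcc
Tgfb2: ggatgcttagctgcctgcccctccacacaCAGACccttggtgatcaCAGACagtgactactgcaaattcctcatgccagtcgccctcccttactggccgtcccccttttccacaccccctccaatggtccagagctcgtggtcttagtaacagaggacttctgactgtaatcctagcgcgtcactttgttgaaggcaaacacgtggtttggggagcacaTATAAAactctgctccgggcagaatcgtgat
Ltbp2: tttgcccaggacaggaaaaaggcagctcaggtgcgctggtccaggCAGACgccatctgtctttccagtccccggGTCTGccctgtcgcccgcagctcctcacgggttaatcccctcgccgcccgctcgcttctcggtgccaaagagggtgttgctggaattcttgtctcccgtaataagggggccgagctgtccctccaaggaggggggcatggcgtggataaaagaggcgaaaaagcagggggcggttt
Tgfbi: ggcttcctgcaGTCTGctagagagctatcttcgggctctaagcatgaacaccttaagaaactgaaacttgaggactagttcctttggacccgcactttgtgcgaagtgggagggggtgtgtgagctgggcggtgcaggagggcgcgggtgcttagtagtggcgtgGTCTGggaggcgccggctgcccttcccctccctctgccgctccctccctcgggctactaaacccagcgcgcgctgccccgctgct
The first motif was CAGAC, which holds the core bound by Smad proteins. The next was TATAAA, the core of a TATA box. The others were the AP-1 site, searched as TGANTCA, and the CArG box of serum response factor, by its name. Matches of different motifs can overlap, though none did in the stretches shown, and all were searched on both strands from 250 bases before to 50 bases after the start. The Tgfb1 stretch held none of them and had 75.2% G and C, against a median of 52.4% over all promoters. The Tgfb2 stretch had 53.6% G and C, CAGAC at 221 and 204 bases before the start and TATAAA at 31 bases before it. The Ltbp2 stretch held CAGAC on its own strand at 205 bases before the start and on the other strand, where it reads GTCTG here, at 176. In the Tgfbi stretch the CAGAC matches lay on the other strand, at 239 and 85 bases before the start. The table held 9 promoters for 7 of the 10 members, with no entry used for Tgfb3, Tgfbr3 and Tgfb1i1. CAGAC was found in 7 of these 9 promoters (6 genes) and in 49.6% of all 32851 promoters, and TATAAA in 1 of the 9 and in 13.6% of all. TGANTCA and the CArG box were found in 0 of the 9, against 7.81% and 1.63% of all promoters. These matches describe letters in a window and were not tested against expression.

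Array medians lay between 4.08 and 4.29 on the log2 scale, and samples of a group correlated across probe sets at r from 0.977 to 0.995. Acta2, the reporter gene, averaged 11.32 in day 13 GFP+ cells and 10.67 in day 13 GFP- cells, a difference of 0.65 that did not pass the test (SE 0.229, limma adjusted p = 0.151). Kdr averaged 9.64 at day 5 and 3.24 at day 0. The 7 smooth muscle markers had sample means of 10.6 to 10.7 in aortic cells, 6.96 to 7.23 in day 13 GFP+ cells and 6.65 to 6.996 in day 13 GFP- cells. Myh11, the smooth muscle myosin that marks mature contractile cells, averaged 11.03 in aortic cells and 4.64 in day 13 GFP+ cells. Both day 13 samples numbered 3 stood apart from those numbered 5 and 6, and results that rest on them are given below with and without them. The deposited table holds no calls of presence, so the lowest levels are not shown to lie above background. The precision is limited by having 3 arrays in each group.

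Across the 5 groups, each member's group means spanned more than the median span of all probe sets (0.74). The spans ran from 1.74 for Ltbp2 and 2.20 for Tgfbr1 to 5.61 for Tgfb1i1 and 5.82 for Tgfbi. The highest mean was in aortic cells for 7 members (Tgfb2, Tgfb3, the 3 receptors, Tgfb1i1 and Ltbp1) and in day 13 GFP+ cells for Tgfb1, Ltbp2 and Tgfbi. The lowest was at day 0 for 6 members and at day 5 for Tgfb3, Tgfbr3, Ltbp1 and Ltbp2.

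**Figure D1:**
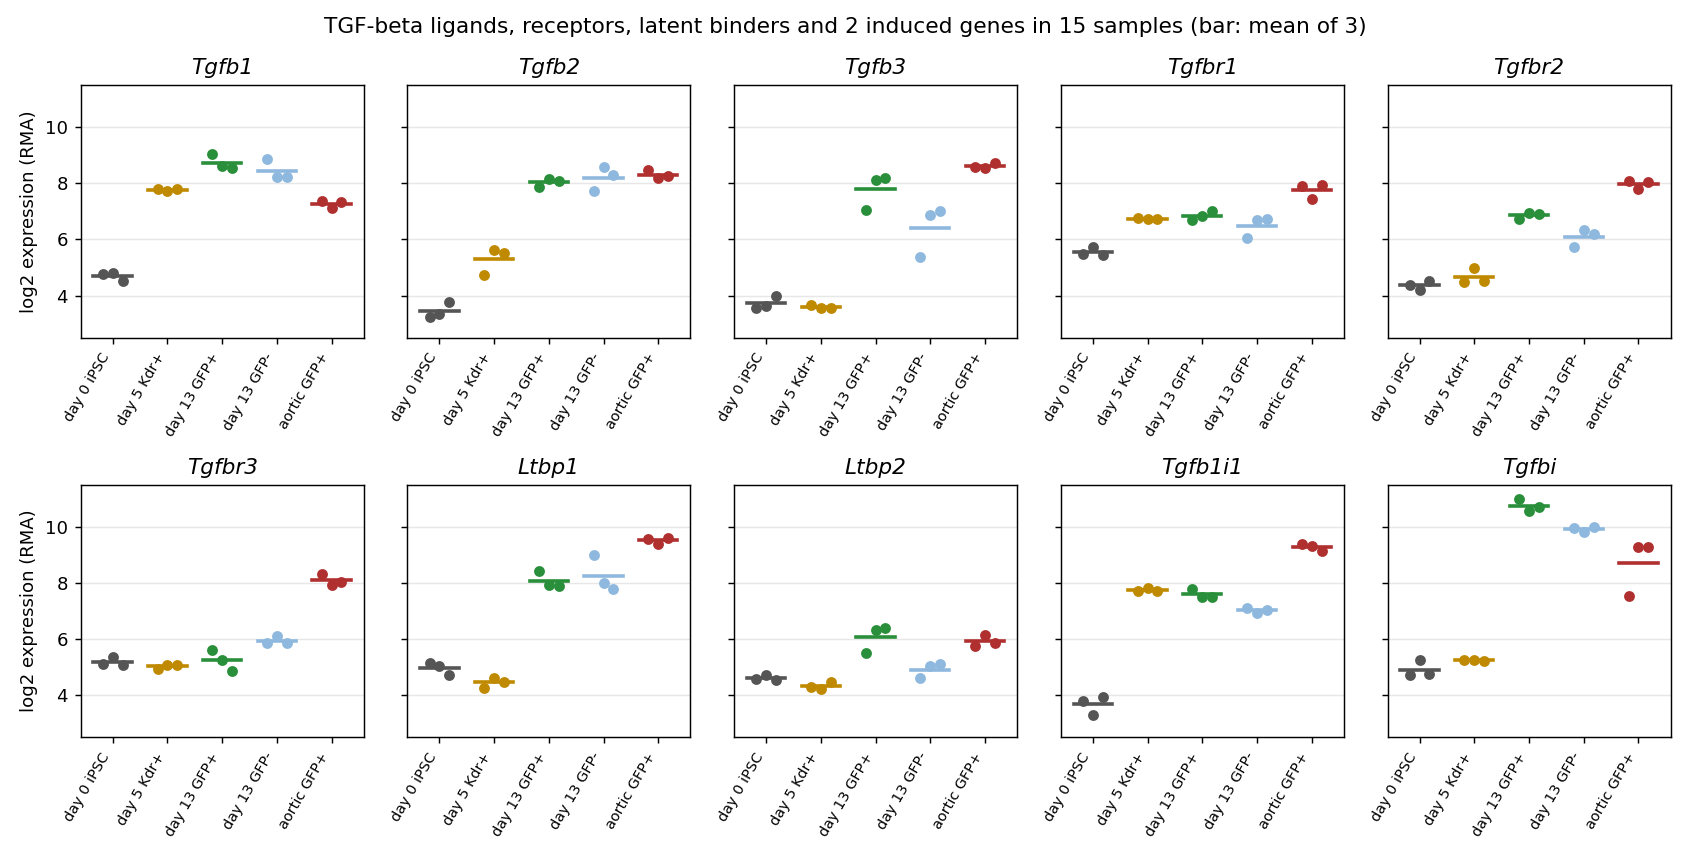
Log2 expression of the 10 genes in every sample, with groups along the x axis of each panel. Points are samples and bars the mean of 3, and Tgfbi spans 4.72 at day 0 to 10.97 in a day 13 GFP+ sample while Tgfb1 is highest at day 13 and lower in the 3 aortic samples.

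The first comparison asks how the system changed as iPSC became Kdr+ mesoderm. At day 5 the ligands Tgfb1 and Tgfb2, the type I receptor Tgfbr1 and the adaptor Tgfb1i1 were higher than at day 0, while Tgfb3, the other receptors and the latent binders did not pass the test. In the fit of all 15 samples with limma, adjusted by Benjamini and Hochberg over all probe sets, 4 of 10 members rose and 0 fell at day 5 (0 lower at an unadjusted p under 0.05 as well), beside 28.8% of all probe sets called and 14.9% called higher. The median log2 change was 0.31 over the members and -0.01 over all probe sets. The same threshold, an adjusted p of 0.05, is used throughout.

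Tgfb1, the ligand most widely studied in vascular cells, stood at 7.78, 7.72 and 7.79 in the day 5 samples, against 4.77, 4.79 and 4.52 in the day 0 samples. The groups were far apart, and Tgfb1 rose 8.4-fold (log2 change 3.07, SE 0.173, limma adjusted p = 2.1e-09). Tgfb2, the ligand required for much of heart and vessel development in mice, stood at 4.73, 5.61 and 5.53 at day 5 and at 3.22, 3.36 and 3.78 at day 0. It rose 3.57-fold (log2 change 1.83, SE 0.239, adjusted p = 2.02e-05), with the day 5 sample numbered 3 nearest to day 0. Tgfb3 overlapped between the stages, at 3.68, 3.54 and 3.57 at day 5 and 3.56, 3.62 and 4.0005 at day 0, a log2 change of -0.13 with a 95% interval of -0.87 to 0.61. Without the day 0 sample numbered 6 that change was 0.01.

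Tgfbr1, the kinase that signals to the Smad proteins, stood at 6.75, 6.73 and 6.73 at day 5, against 5.47, 5.75 and 5.46 at day 0. It rose 2.26-fold (log2 change 1.18, SE 0.180, adjusted p = 9.81e-05), and the 3 day 5 samples were nearly equal. Tgfbr2, the ligand-binding kinase that activates Tgfbr1, stood at 4.48, 4.98 and 4.53 at day 5 and 4.38, 4.19 and 4.53 at day 0, where the groups overlapped (log2 change 0.30, 95% interval -0.07 to 0.66, adjusted p = 0.248). Tgfbr3 had 4.95, 5.10 and 5.07 at day 5 and 5.11, 5.36 and 5.10 at day 0, a log2 change of -0.15 (interval -0.51 to 0.21, adjusted p = 0.621).

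Tgfb1i1 encodes Hic-5, a LIM-domain adaptor of the paxillin family that sits at focal adhesions and acts as a coactivator in the nucleus. It stood at 7.73, 7.82 and 7.72 at day 5, against 3.81, 3.30 and 3.93 at day 0, and had the largest change of the members at this step, 16.9-fold (log2 change 4.07, SE 0.153, adjusted p = 2.24e-11). The matrix-side genes gave no call. Ltbp1 was at 4.28, 4.62 and 4.47 at day 5 and 5.14, 5.03 and 4.71 at day 0 (log2 change -0.50, adjusted p = 0.158), groups that did not overlap. It passed the test as lower at day 5 in the fit of those groups alone (adjusted p = 0.0258), with array weights (0.029) and after cyclic loess (0.0452). Ltbp2 changed by -0.27 (adjusted p = 0.393). Tgfbi changed by 0.33 (adjusted p = 0.56). The 3 values of the groups did not overlap in 7 of 10 members, beside 46% of all probe sets.

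The next comparisons ask what changed between day 5 and day 13. Most of the system rose in both sorts, and in GFP+ cells the largest changes were those of Tgfbi, Tgfb3 and Ltbp1, which had given no call at day 5. In day 13 GFP+ cells 7 members rose and 0 fell against day 5 (0 lower at an unadjusted p under 0.05 as well), beside 31.2% of all probe sets called and 14.3% called higher. In day 13 GFP- cells 7 rose and 1 fell, beside 26% called, of which 12% of all probe sets were higher and 13.9% lower. The median log2 change was 1.97 in GFP+ and 1.16 in GFP- cells, beside -0.00 and -0.03 over all probe sets. Both comparisons use the same 3 day 5 samples. The values did not overlap with day 5 in 7 members for GFP+ cells, beside 45.3% of all probe sets, and in 10 for GFP- cells, beside 39.6%.

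Tgfbi encodes a secreted matrix protein that binds collagens and integrins. Its values were 10.97, 10.55 and 10.69 in day 13 GFP+ cells and 9.96, 9.81 and 10.01 in day 13 GFP- cells, against 5.26, 5.26 and 5.22 at day 5. Both sorts lay far above all day 5 samples. The change was 45.1-fold in GFP+ cells (log2 change 5.49, SE 0.333, adjusted p = 5.32e-09) and 25.6-fold in GFP- cells (log2 change 4.68, adjusted p = 5.45e-08).

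Tgfb3, a ligand known in mice for its role in palate fusion, stood at 7.05, 8.11 and 8.18 in GFP+ cells and 5.39, 6.87 and 7.01 in GFP- cells, against 3.68, 3.54 and 3.57 at day 5. It rose 18.2-fold in GFP+ cells (log2 change 4.18, SE 0.348, adjusted p = 1.43e-07) and 7.08-fold in GFP- cells (log2 change 2.82, adjusted p = 1.49e-05). In each sort the sample numbered 3 was the lowest. Ltbp1, which binds the latent ligand covalently and targets it to the matrix, stood at 8.42, 7.92 and 7.91 in GFP+ cells and 8.98, 7.99 and 7.78 in GFP- cells, against 4.28, 4.62 and 4.47 at day 5. It rose 12.3-fold in GFP+ cells (log2 change 3.62, SE 0.245, adjusted p = 1.59e-08) and 13.9-fold in GFP- cells (log2 change 3.79, adjusted p = 2.09e-08). Here the sample numbered 3 was the highest of each sort.

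Tgfb2 stood at 7.87, 8.16 and 8.08 in GFP+ cells and 7.73, 8.58 and 8.28 in GFP- cells, against 4.73, 5.61 and 5.53 at day 5. Unlike Tgfb3 it rose at both steps, here 6.72-fold in GFP+ cells (log2 change 2.75, SE 0.239, adjusted p = 2.24e-07) and 7.49-fold in GFP- cells (log2 change 2.90, adjusted p = 2.51e-07). Tgfb1 stood at 9.03, 8.61 and 8.54 in GFP+ cells and 8.86, 8.24 and 8.22 in GFP- cells, all above the day 5 values of 7.72 to 7.79. Its changes were smaller, 1.95-fold in GFP+ cells (log2 change 0.96, adjusted p = 0.000355) and 1.6-fold in GFP- cells (0.68, adjusted p = 0.00763).

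Among the receptors, Tgfbr2 stood at 6.74, 6.92 and 6.92 in GFP+ cells and 5.73, 6.32 and 6.20 in GFP- cells, against 4.48, 4.98 and 4.53 at day 5. It rose 4.58-fold in GFP+ cells (log2 change 2.20, SE 0.172, adjusted p = 7.44e-08) and 2.68-fold in GFP- cells (log2 change 1.42, adjusted p = 1.22e-05). Its partner Tgfbr1 had risen before day 5 and did not pass the test after it, with 6.71, 6.84 and 7.01 in GFP+ cells (log2 change 0.11, 95% interval -0.27 to 0.50) and 6.05, 6.70 and 6.71 in GFP- cells (-0.25, interval -0.63 to 0.14). Tgfbr3 stood at 5.63, 5.27 and 4.87 in GFP+ cells, which overlapped day 5 (log2 change 0.22, interval -0.14 to 0.58). In GFP- cells it stood at 5.88, 6.10 and 5.85 and rose 1.87-fold (log2 change 0.90, SE 0.169, adjusted p = 0.000689). Endothelial markers moved in the same comparisons, with 1 of 6 higher in GFP+ cells and 5 of 6 in GFP- cells (sample means 4.23 to 4.40 in GFP+ and 5.04 to 5.18 in GFP- cells, against 3.44 to 3.78 at day 5). Of the 6 endoderm and epithelium markers 2 were lower in GFP+ cells and 4 higher in GFP- cells (4.17 to 4.47 in GFP+ and 6.38 to 6.63 in GFP- cells, against 4.82 to 4.96 at day 5). Fibroblast markers had 3 of 6 higher and 1 lower in GFP+ cells, and 2 higher and 1 lower in GFP- cells. Of 4 cardiac markers 2 were higher in each sort, with Tnnt2 at 9.43 in GFP+ and 9.36 in GFP- cells, against 5.97 at day 5. All 4 proliferation genes were lower in each sort. The part of these in the day 13 results was not tested.

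Tgfb1i1 overlapped its day 5 values in GFP+ cells, at 7.78, 7.4958 and 7.49 (log2 change -0.17, interval -0.49 to 0.16, and 0.03 after cyclic loess). In GFP- cells it stood at 7.12, 6.94 and 7.03 and fell by 0.73 on the log2 scale (1.65-fold lower, SE 0.153, adjusted p = 0.00186), the single member that fell. Ltbp2, a relative of Ltbp1 known as a microfibril protein that does not bind latent TGF-beta itself, stood at 5.52, 6.34 and 6.39 in GFP+ cells, against 4.31, 4.24 and 4.47 at day 5. It rose 3.34-fold there (log2 change 1.74, SE 0.205, adjusted p = 5.62e-06). In GFP- cells, at 4.60, 5.05 and 5.10, its log2 change of 0.58 was at the threshold (adjusted p = 0.0502) and passed without the sample numbered 3 (0.73, adjusted p = 0.0186).

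**Figure D2:**
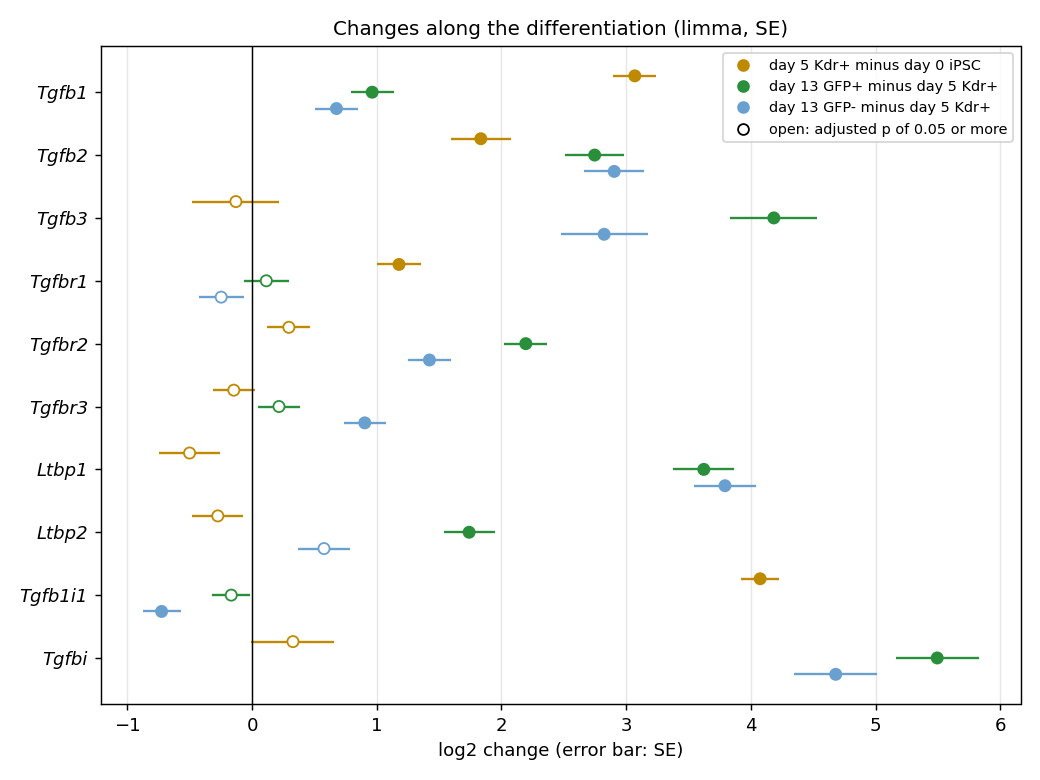
Log2 change of each gene (x axis) in day 5 Kdr+ against day 0 cells and in each day 13 sort against day 5 cells, from limma over all 15 samples, with standard errors as bars and open points for an adjusted p of 0.05 or more. Tgfb1i1 and Tgfb1 change most at the first step, by 4.07 and 3.07, and Tgfbi, Tgfb3 and Ltbp1 at the second, by 5.49, 4.18 and 3.62 in GFP+ cells.

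The day 13 sorts were then compared with each other, to ask whether the system differed with the Acta2 reporter. Tgfb3, Tgfbr2 and Ltbp2 were higher in GFP+ cells, and Tgfbr3 was lower. These 4 of 10 members, 3 higher and 1 lower, stood beside 4.53% of all probe sets called (2.02% higher, 2.52% lower), and the 3 values of the sorts did not overlap in 6 members, beside 19.5% of all probe sets. Tgfb3 was 2.57-fold higher in GFP+ cells (log2 change 1.36, SE 0.348, adjusted p = 0.0362), Tgfbr2 1.71-fold (0.77, SE 0.172, adjusted p = 0.0162) and Ltbp2 2.24-fold (1.16, SE 0.205, adjusted p = 0.00363). Tgfbr3 was 1.61-fold lower in GFP+ cells (log2 change -0.69, SE 0.169, adjusted p = 0.0285).

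Day 13 samples of the same number deviated together in both sorts, so differences by number are given too. The log2 difference, GFP+ minus GFP-, in the samples numbered 3, 5 and 6 was 1.67, 1.24 and 1.17 for Tgfb3. It was 1.00, 0.60 and 0.72 for Tgfbr2. For Ltbp2 it was 0.91, 1.29 and 1.29. All 3 pairs of each gene had GFP+ above GFP-. Tgfbr3 had GFP+ below GFP- in all 3 pairs, by -0.25, -0.83 and -0.98. All 3 numbers gave the same direction in 8 of the 10 members, a count that was not taken over all probe sets. With the replicate block, 6 members were called in the cultured samples, beside 5.8% of all probe sets with the block as a fixed effect and 5.64% as a random one, and 6 in the day 13 samples alone, beside 8.45%. The 2 added members were Tgfb1i1 and Tgfbi, both higher in GFP+ cells.

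Tgfb1i1 differed by 0.66, 0.55 and 0.47 in the samples numbered 3, 5 and 6. Its mean log2 change of 0.56 just missed the threshold without the block (adjusted p = 0.0514) and passed with it (0.0466 fixed, 0.048 random, 0.0199 in the day 13 samples alone). Tgfbi differed by 1.02, 0.74 and 0.69, and its mean log2 change of 0.81 (SE 0.333) had an adjusted p of 0.239 without the block. With the block that p was 0.0138 fixed, 0.00696 random and 0.00608 in the day 13 samples alone. All these fits also left out the aortic samples, among which Tgfbi had a standard deviation of 1.00. In the fits of the cultured samples the part of the block cannot be told from that of leaving these samples out. No fit of all cultured samples without the block is given here. In the day 13 samples alone, 1 member passed without the block and 6 with it. Tgfb1 was higher in the GFP+ sample of all 3 pairs, by 0.17, 0.37 and 0.32, as was Tgfbr1, by 0.65, 0.14 and 0.29, and neither passed with or without the block. Tgfb2 and Ltbp1 had no shared direction, at 0.15, -0.42 and -0.20 for Tgfb2 and -0.56, -0.07 and 0.12 for Ltbp1.

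In fits without the block the calls between the sorts depended on single samples. Those that left out 1 sample kept the other of the same number, so they do not weigh the pairs. Without the GFP- sample numbered 3, the GFP+ sample numbered 5 or the GFP+ sample numbered 6, Ltbp2 was the 1 member still called. Tgfb3 differed by 0.84 without that GFP- sample (adjusted p = 0.0918). Tgfbr3 missed the threshold in 5 of the 6 fits that left out 1 day 13 sample (adjusted p from 0.05 to 0.149). Without both samples numbered 3, 3 members were called, with Tgfbr2 at 0.66 (adjusted p = 0.0658) and Ltbp1 at 0.03.

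The samples numbered 3 lay on the same side in both sorts for all members but Tgfbr3. Relative to the mean of the samples numbered 5 and 6, Tgfb3 in the sample numbered 3 differed by -1.09 in GFP+ and -1.55 in GFP- cells. Ltbp2 differed by -0.85 in GFP+ and -0.47 in GFP- cells. Ltbp1 went the other way, 0.51 in GFP+ and 1.09 in GFP- cells, as did Tgfb1, 0.46 in GFP+ and 0.63 in GFP- cells. The 6 fibroblast markers had a mean level of 5.00, 5.60 and 5.88 in the GFP+ samples numbered 3, 5 and 6. In the GFP- samples it was 4.02, 4.84 and 5.01, so both sorts were lowest in the sample numbered 3. That sample was also lowest in both sorts for smooth muscle markers (6.959 in GFP+ and 6.653 in GFP- cells). The same held for cardiac markers (5.685 in GFP+ and 5.914 in GFP- cells). It was highest in both sorts for pluripotent and for mesoderm markers (mesoderm 4.719 in GFP+ and 5.524 in GFP- cells). For proliferation and for endoderm and epithelium markers its side differed between the sorts. The 6 endoderm and epithelium markers were all lower in GFP+ cells, with sample means of 4.17 to 4.47 in GFP+ and 6.38 to 6.63 in GFP- cells. Apob, of yolk sac and liver endoderm, was at 3.79 in GFP+ and 7.29 in GFP- cells, and Cdh1, the epithelial cadherin, at 4.45 in GFP+ and 7.21 in GFP- cells. Of the 6 endothelial markers 3 were lower in GFP+ cells (sample means 4.23 to 4.40 in GFP+ and 5.04 to 5.18 in GFP- cells). The part of these cell types in the differences between the sorts was not tested. In such bulk samples, fewer cells of a type and less RNA per cell cannot be told apart.

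**Figure D3:**
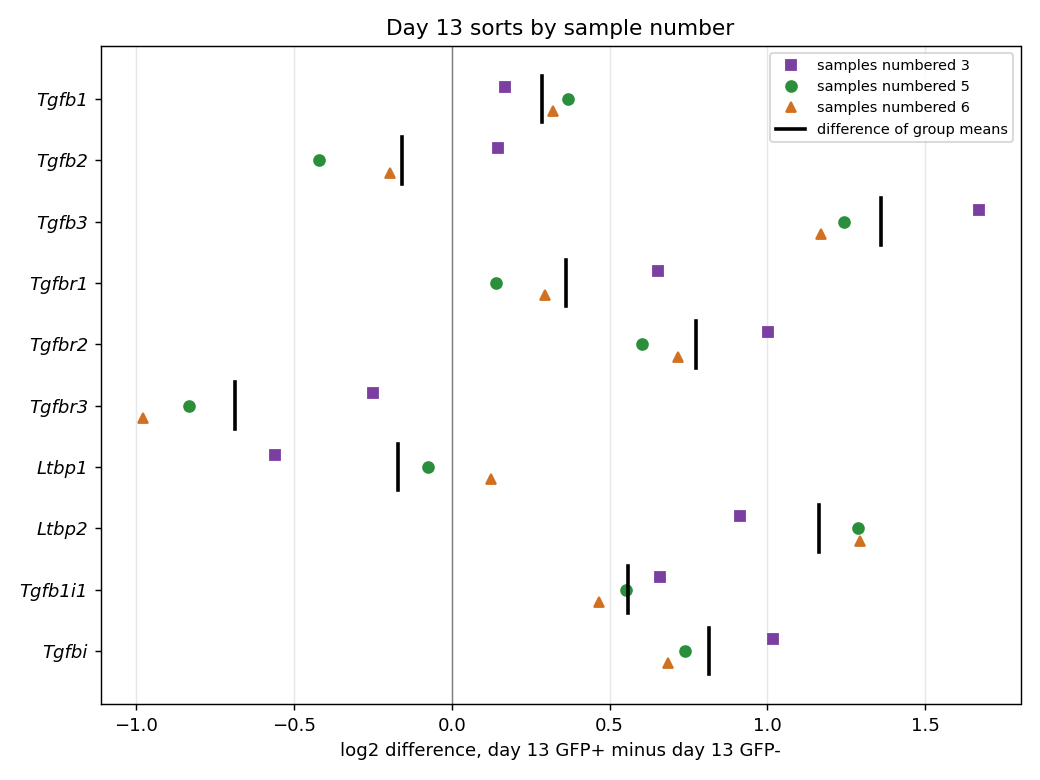
Log2 difference of day 13 GFP+ minus day 13 GFP- for each gene (x axis), with 1 point for each pair of samples of equal number and a bar at the difference of the group means. Tgfb3, Tgfbr2, Ltbp2, Tgfb1i1, Tgfbi, Tgfb1 and Tgfbr1 lie right of 0 in all 3 pairs, Tgfbr3 lies left of 0 in all 3, and Tgfb2 and Ltbp1 lie on both sides.

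The last comparisons ask how primary aortic cells stood against the day 13 cells. The receptors, Tgfb1i1 and Ltbp1 were higher in aortic cells than in either sort, Tgfb1 and Tgfbi were lower, and Tgfb2 passed against neither. Against day 13 GFP+ cells 5 members were higher and 2 lower in aortic cells, beside 37.2% of all probe sets called (17.7% higher, 19.5% lower). Against day 13 GFP- cells 7 were higher and 2 lower, beside 41.9% called (20.2% higher, 21.7% lower). The median log2 change was 0.87 against GFP+ and 1.27 against GFP- cells, beside 0.07 and 0.09 over all probe sets. The values did not overlap in 9 members against either sort, beside 44.9% of all probe sets for GFP+ and 47% for GFP- cells. Both comparisons use the same 3 aortic samples, and aortic cells also differ from the cultured ones in their source, so culture and stage cannot be told apart.

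The co-receptor Tgfbr3 had the largest rise against GFP+ cells. It stood at 8.31, 7.94 and 8.02 in aortic cells, against 4.87 to 5.63 in day 13 GFP+ and 5.85 to 6.10 in day 13 GFP- cells. Every aortic sample lay above every cultured one, and the change was 7.14-fold against GFP+ cells (log2 change 2.84, SE 0.169, adjusted p = 2.4e-09) and 4.43-fold against GFP- cells (log2 change 2.15, adjusted p = 4.64e-08). Tgfbr2 stood at 8.10, 7.79 and 8.05 in aortic cells, above GFP+ cells by 1.12 (2.17-fold, SE 0.172, adjusted p = 7.96e-05) and above GFP- cells by 1.89 (3.71-fold, adjusted p = 2.51e-07) on the log2 scale. Tgfbr1 stood at 7.89, 7.43 and 7.95, above GFP+ cells by 0.91 (1.88-fold, SE 0.180, adjusted p = 0.000789) and above GFP- cells by 1.27 (2.41-fold, adjusted p = 2.93e-05).

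Tgfb1i1 stood at 9.40, 9.33 and 9.14 in aortic cells and was 3.24-fold higher than in GFP+ cells (log2 change 1.70, SE 0.153, adjusted p = 2.76e-07) and 4.78-fold higher than in GFP- cells (2.26, adjusted p = 8.48e-09). Ltbp1 stood at 9.57, 9.40 and 9.61 in aortic cells, 2.72-fold above GFP+ cells (log2 change 1.44, SE 0.245, adjusted p = 0.00021) and 2.42-fold above GFP- cells (1.27, adjusted p = 0.000557). For both genes all 3 aortic samples lay above all 6 day 13 samples. Ltbp2, at 5.75, 6.14 and 5.88 in aortic cells, overlapped GFP+ cells (log2 change -0.16, 95% interval -0.60 to 0.28) and was 2.01-fold above GFP- cells (log2 change 1.00, SE 0.205, adjusted p = 0.000893). Without both day 13 samples numbered 3 it passed as lower in aortic than in GFP+ cells (-0.44, adjusted p = 0.0196).

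The ligands differed among themselves. Tgfb1 stood at 7.36, 7.12 and 7.35 in aortic cells, below every day 13 sample. It was lower than in GFP+ cells by 2.73-fold (log2 change -1.45, SE 0.173, adjusted p = 6.15e-06) and lower than in GFP- cells by 2.24-fold (-1.16, adjusted p = 4.94e-05). It was also lower than at day 5, by 0.49 on the log2 scale (adjusted p = 0.0307). Tgfb3 stood at 8.57, 8.55 and 8.72 in aortic cells, 4.58-fold above GFP- cells (log2 change 2.19, SE 0.348, adjusted p = 9.18e-05). Against GFP+ cells its log2 change of 0.83 missed the threshold (adjusted p = 0.0742), though the values did not overlap, and it passed without both day 13 samples numbered 3 (0.47, adjusted p = 0.0168) and after cyclic loess (1.01, adjusted p = 0.0479). Tgfb2 stood at 8.48, 8.20 and 8.25 in aortic cells and differed from GFP+ cells by 0.27 (95% interval -0.24 to 0.78, adjusted p = 0.401) and from GFP- cells by 0.12 (interval -0.39 to 0.62, adjusted p = 0.719).

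Tgfbi was the most uneven of the members in aortic cells, at 7.54, 9.29 and 9.27 in the samples numbered 1, 2 and 3. All lay below every day 13 sample. It was 4.12-fold lower than in GFP+ cells (log2 change -2.04, SE 0.333, adjusted p = 0.000138) and 2.35-fold lower than in GFP- cells (-1.23, adjusted p = 0.00734). Without the aortic sample numbered 1 the changes were -1.46 (adjusted p = 8.34e-06) against GFP+ and -0.65 (adjusted p = 0.00621) against GFP- cells. The call against GFP- cells was lost in the fit of those groups alone (adjusted p = 0.0541) and after cyclic loess (-0.75, adjusted p = 0.119).

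Markers of other cell types also differed between these groups. The 6 fibroblast markers had a mean level of 7.78, 8.82 and 8.57 in the aortic samples numbered 1, 2 and 3. They stood at 5.00 to 5.88 in GFP+ and 4.02 to 5.01 in GFP- cells. Of these markers 4 were higher in aortic than in GFP+ cells, while Tgfbi was lower. The aortic sample numbered 1, where Tgfbi was lowest, was lowest for the fibroblast markers but not for them alone. It was also lowest for endothelial (5.74), leukocyte and macrophage (4.08) and proliferation (4.26) markers, among others. For the smooth muscle markers it was the highest of the 3, at 10.695. All 6 endothelial markers were higher in aortic than in GFP+ cells, with sample means of 5.74 to 6.46 in aortic, 4.23 to 4.40 in GFP+ and 5.04 to 5.18 in GFP- cells, and Pecam1, an endothelial adhesion molecule, at 7.99 in aortic and 4.24 in GFP+ cells. Of 6 leukocyte and macrophage markers 4 were higher in aortic than in GFP+ cells (sample means 4.08 to 4.42 in aortic and 3.45 to 3.52 in GFP+ cells). The 4 proliferation genes were all lower in aortic cells (4.26 to 4.86 in aortic and 6.91 to 7.46 in GFP+ cells). The part of these in the aortic results was not tested.

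**Figure D4:**
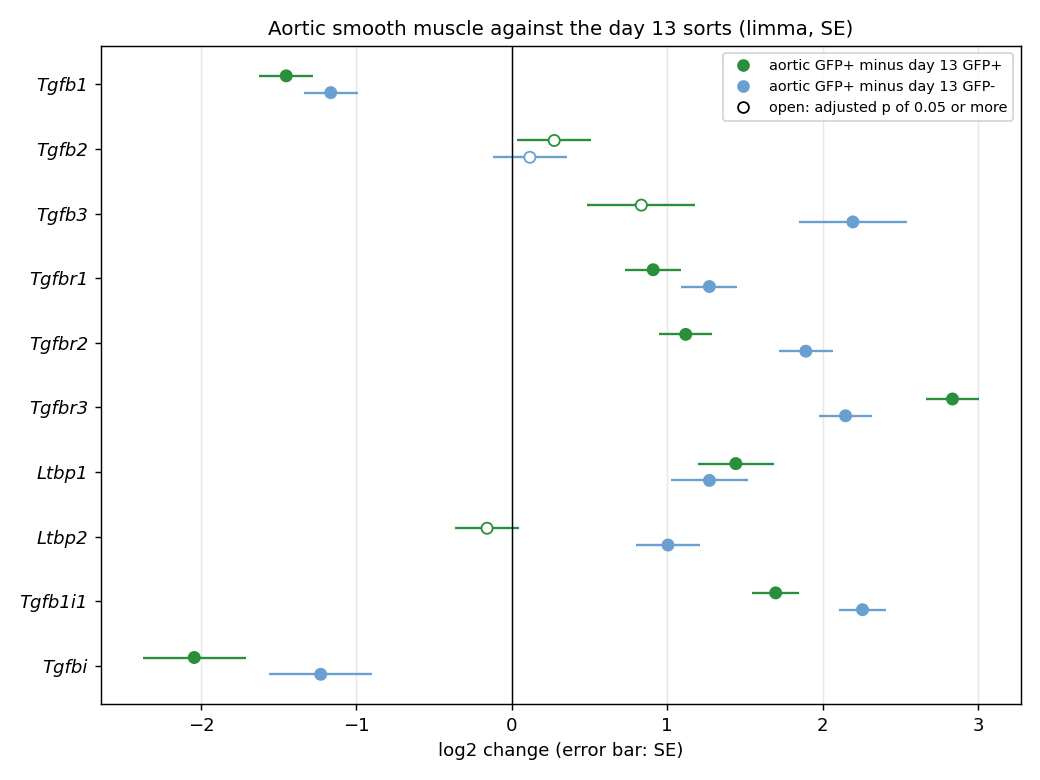
Log2 change of each gene (x axis) in aortic GFP+ cells against each day 13 sort, from limma over all 15 samples, with standard errors as bars and open points for an adjusted p of 0.05 or more. Tgfb1 and Tgfbi lie left of 0, at -1.45 and -2.04 against GFP+ cells, the receptors, Tgfb1i1 and Ltbp1 lie right of it, and Tgfb2 and, against GFP+ cells, Tgfb3 and Ltbp2 have open points.

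The order of the 5 groups differed between the genes, and neighbours in that order are called not told apart where their adjusted p was 0.05 or more in the fit of all 15 samples without the block. From low to high, Tgfb1 ran day 0, aortic, day 5, GFP- and GFP+, with the sorts not told apart. Tgfb2 ran day 0, day 5, GFP+, GFP- and aortic, with neighbours among the last 3 not told apart. Tgfb3 ran day 5, day 0, GFP-, GFP+ and aortic, where neither the first pair nor the last pair was told apart. Tgfbr2 ran day 0, day 5, GFP-, GFP+ and aortic, and each step after day 5 passed. Tgfbr1 ran day 0, GFP-, day 5, GFP+ and aortic, with the middle neighbours not told apart and both ends set off. Tgfbr3 ran day 5, day 0, GFP+, GFP- and aortic, with the first 3 not told apart from their neighbours and GFP- and aortic each a step higher. Tgfb1i1 ran day 0, GFP-, GFP+, day 5 and aortic, where GFP+ was not told apart from GFP- or from day 5 and both ends were set off. In the fits with the block, which left out the aortic samples, its sorts differed. Ltbp1 ran day 5, day 0, GFP+, GFP- and aortic, where neither day 5 and day 0 nor the sorts were told apart. Ltbp2 ran day 5, day 0, GFP-, aortic and GFP+, and its single step that passed was that between GFP- and aortic. Tgfbi ran day 0, day 5, aortic, GFP- and GFP+, where neither the first pair nor the last pair was told apart. Its sorts too differed in the fits with the block and without the aortic samples.

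Over the 15 samples Tgfb3 and Tgfbr2 followed each other most closely among the members (Pearson r = 0.974, Spearman rho 0.918), and Tgfb1 and Tgfbr3 least (r = 0.073, rho -0.043). These are descriptions over samples that share groups and arrays. By the same measure the genes most like each member, of the named probe sets ranked, each with a span of at least 1, were as follows. Tgfb1 was closest to Fut11 (r = 0.99), a fucosyltransferase, then Selenon and Kirrel. Tgfb2 was closest to the RNA-binding protein gene Rbms3 (0.989), then Ctso and Kmt2e (0.983 each). Tgfb3 was closest to the matrix protease gene Adamts5 (0.992), then Dkk3 and Lum, the keratan sulphate proteoglycan lumican (0.989). Tgfbr1 was closest to Mid2 (0.991), then Zc2hc1a and Hipk1. Tgfbr2 was closest to Gng12 (0.992), then Plxdc2 and Atp10a (0.991 each). Tgfbr3 was closest to Eapp (0.98), then the ectonucleotidase gene Entpd1 (0.975) and Rassf3. Tgfb1i1 was closest to Rgs5 (0.986), a pericyte regulator of G protein signalling, then Bves and Oat. Ltbp1 was closest to Arl6ip5 (0.988), then Parp4 and the receptor kinase gene Axl. Ltbp2 was closest to the collagen gene Col8a1 (0.964), then Lpl and Tshz3. Tgfbi was closest to Fstl1 (0.979), then Rcn3 and Lipa.

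The other genes of the pathway were followed as lists taken from general knowledge, and all their genes were measured. The lists were chosen with earlier results of these data known, so their counts are descriptions. At day 5 the 12 intracellular signalling genes had 7 higher and 0 lower (0 lower at an unadjusted p under 0.05 as well), with a median log2 change of 0.56, led by the receptor-associated Tgfbrap1 (0.95), the Smad anchor Zfyve9 (0.87) and Smad4 (0.81). Of 14 other receptors and co-receptors 7 were higher and 2 lower at day 5, among them the semaphorin and VEGF co-receptor Nrp1 (5.52), the decoy receptor Bambi (2.47) and endoglin, Eng (-2.61). Of 17 genes known to respond to TGF-beta 3 were higher and 8 lower at day 5 (median -0.88, beside -0.01 over all probe sets), with Bhlhe40 at -2.87 and the matricellular Ccn2 at -2.01. Of 12 inhibitors 4 were higher and 2 lower, led by the inhibitory Smad6 (3.48). These counts stand beside 14.9% of all probe sets called higher and 13.9% lower at day 5.

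Between day 5 and day 13 GFP+ cells, 16 of the 17 responsive genes rose and 1 fell (median 3.19, beside -0.00 over all probe sets). The largest were Postn (6.90), Col3a1 (6.48) and Col1a2 (5.82), genes of the collagen matrix. Of 17 other latency and activation genes 15 rose in limma and 0 fell (0 also at an unadjusted p under 0.05), among them Thbs1 (6.31), whose product thrombospondin can release latent TGF-beta, the integrin subunit Itgb3 (4.14) and the fibrillin gene Fbn1 (3.89). In GFP- cells the counts were 13 rising and 1 falling for the responsive genes and 12 rising for the latency genes. Of the 12 intracellular genes 5 fell and 0 rose in GFP+ cells (1 higher at an unadjusted p under 0.05), with Usp15 (-1.14), Daxx (-1.002) and Strap (-0.85) leading, and 4 fell and 1 rose in GFP- cells. The Nodal co-receptor Tdgf1 fell by 5.78 in GFP+ cells and Eng rose by 2.97. Of the 9 elastic-fibre partners 7 rose in each sort, with Fbln5 at 3.51 and Mfap2 at 3.31 in GFP+ cells. Over all probe sets 14.3% rose and 16.9% fell in GFP+ cells, and 12% rose and 13.9% fell in GFP- cells.

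Between the sorts, 9 of the 17 latency genes were higher in GFP+ cells in limma and 0 lower (0 also at an unadjusted p under 0.05), led by Itgb5 (1.10), Emilin1 (1.09) and the gelatinase gene Mmp2 (1.07). Of the responsive genes 6 of 17 were higher, or 12 at an unadjusted p under 0.05, with Timp3 (1.38) and Col3a1 (1.38). Cd109 (1.22), Eng (0.87) and Acvr1 (0.73) were higher among 14 other receptors. Of the 12 intracellular genes 0 passed in limma, and 1 was lower at an unadjusted p under 0.05. Over all probe sets 2.02% were called higher and 2.52% lower in GFP+ cells. The 6 endoderm and epithelium markers given above were lower in the same cells.

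In aortic against day 13 GFP+ cells the latency genes went both ways, 5 higher and 6 lower of 17. Lrrc32, which tethers latent TGF-beta at the cell surface, was higher by 4.43 (adjusted p = 9.99e-14), Ltbp4 was higher by 2.71 and Mmp2 was lower, at -2.59. Among elastic-fibre genes 3 were higher and 4 lower of 9, with Mfap5 at 5.41, elastin (Eln) at 2.52 and the fibrillin of early development, Fbn2, at -6.04 (adjusted p = 4.72e-13). Of the responsive genes 7 were higher and 5 lower, with the oxidase gene Nox4 (4.16) and Junb (2.64) among those higher. Of 12 paxillin and focal adhesion genes 3 were higher and 3 lower, led by Lims2 (4.84). The counts of these lists stand beside 17.7% of all probe sets called higher and 19.5% lower. Of the intracellular genes 5 of 12 were lower and 0 higher (1 higher at an unadjusted p under 0.05), with Map3k7 (-0.93) and Smad2 (-0.90). The fibroblast and endothelial markers given above were higher in the same aortic samples.

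**Figure D5:**
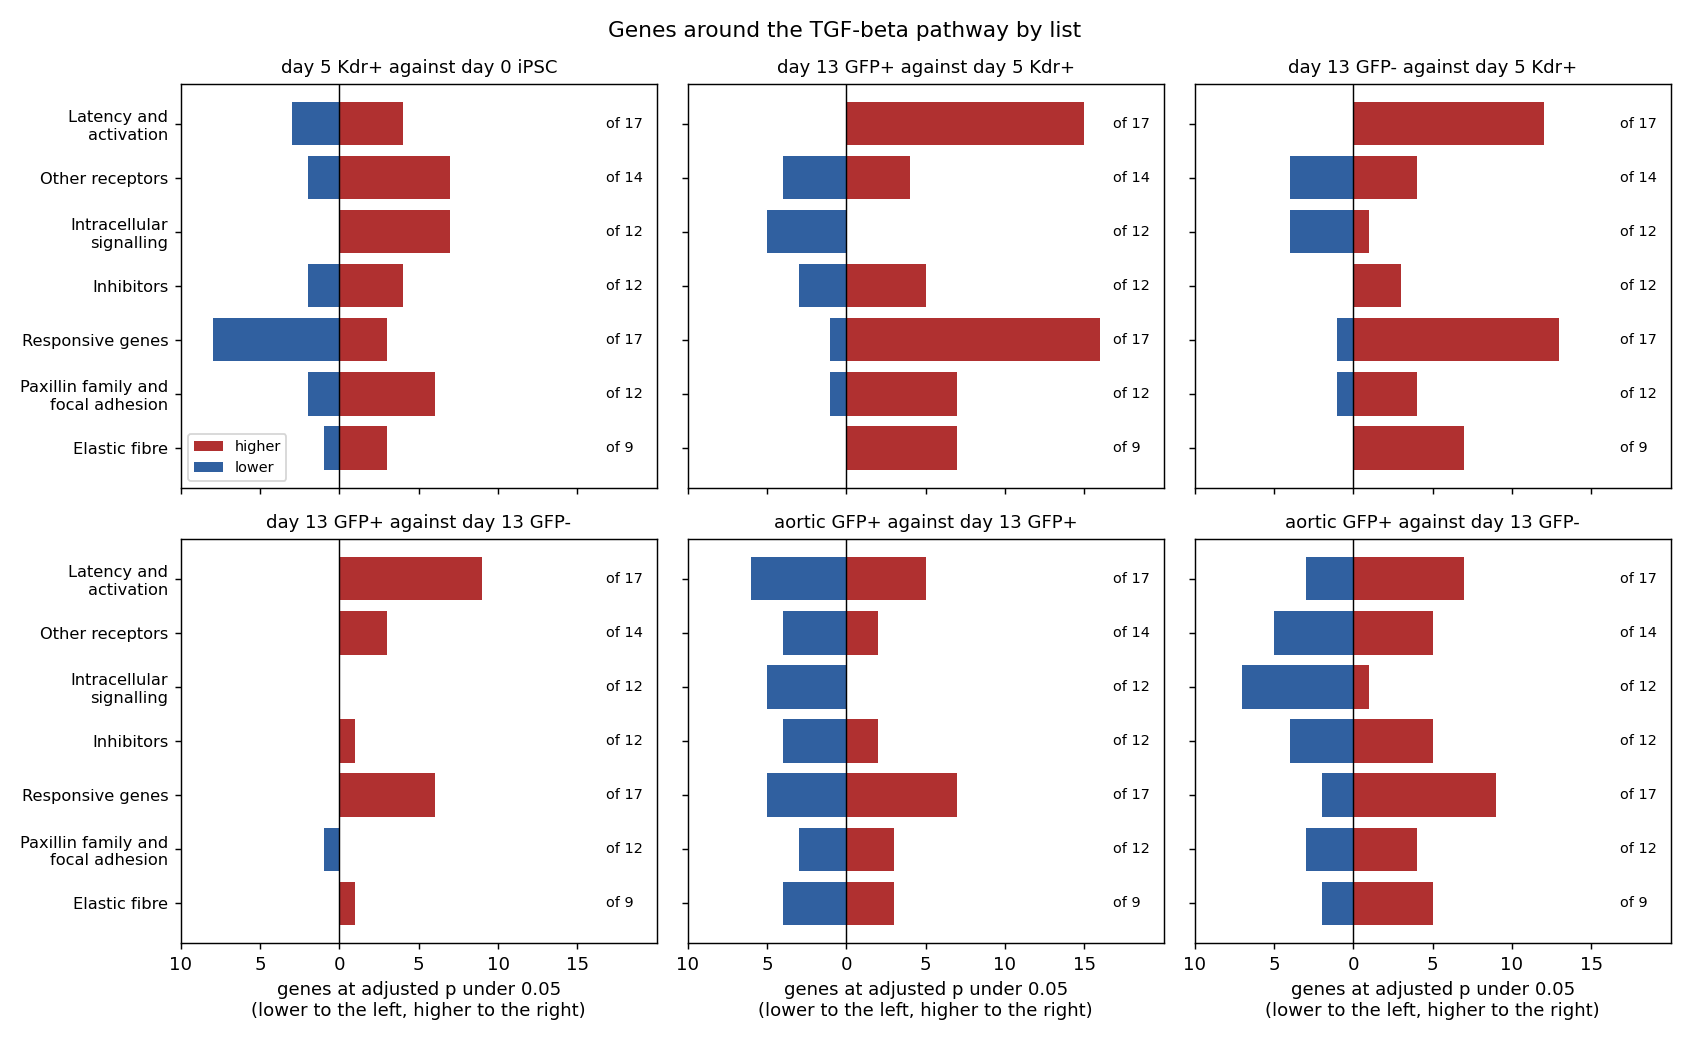
Number of genes of each pathway list called higher (right of 0) or lower (left of 0) at a limma adjusted p under 0.05, with 1 panel per comparison and the number of genes measured at the right. The responsive genes show 8 lower at day 5 and 16 higher in day 13 GFP+ against day 5 cells, and the intracellular genes show no call between the sorts.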

How the data were processed

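Total RNA, extracted with QIAzol and labelled with biotin per the labels' protocols, was measured on arrays. The deposited values are log2 expression values. The submitters' processing notes name RMA (background correction, quantile normalization and median polish), R 2.15.1 and affy 1.36.1 as the authors' tools. That the scale is log2 was read from the values. Of 25206 probe sets, 23740 were named by matching the Entrez number to the RefSeq table of GRCm38.p6. No source used here gives the authors' genome build.

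All 15 samples were fitted with a mean per group in limma 3.58.1 (R 4.3.3, 10 residual and 5.09 prior degrees of freedom), without a filter. The Benjamini-Hochberg adjustment ran over all probe sets within each comparison, with a threshold of 0.05. Errors are standard errors, and intervals are at 95%. The members and the gene lists were chosen with earlier results of these data known. The rule for naming took all members, up to 3 called genes of largest change for each list and comparison, and the 3 genes with the highest r for each member. Only some of the list genes it allows are named, 1 gene is not reported here, and marker genes are named outside it.

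The cultured samples are numbered 3, 5 and 6 and the aortic ones 1, 2 and 3. Deviations from the group means correlated across probe sets at 0.597, 0.403 and 0.397 for equal numbers of the day 13 sorts, and between -0.091 and 0.079 for equal numbers of other cultured groups. Unequal numbers of the day 13 sorts correlated at 0.278 and 0.345 between 5 and 6, and from -0.5 to -0.419 where 1 sample was numbered 3. The numbers were taken to pair the day 13 sorts, though these values set number 3 apart more than they tell 5 from 6. The random replicate block had a consensus correlation of 0.038 over the cultured samples. Scan dates were not in the sources used here. Protein sequences were not used here. Alternatives changed the samples, weights, variance moderation, scaling, filter and block. Leaving out both day 13 samples numbered 3 was chosen after seeing the data.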

Additional observations from a re-analysis of the deposited data

How the results depend on the processing

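Over 60 changes (10 genes in 6 comparisons) and 1040 alternatives, 966 kept direction and side of the threshold, 28 newly passed, 37 no longer passed and 9 turned direction. Of those that turned, none had passed the test. They were Tgfb3 at day 5 against day 0 (0.0075 without the day 0 sample numbered 6, and -0.211 to 0.0075 over samples left out), Tgfb1i1 in GFP+ against day 5 cells (0.0299 after cyclic loess), Tgfb2 between the sorts (0.0358 without the GFP- sample numbered 5, range -0.390 to 0.0358), Ltbp1 between the sorts (0.0652 with array weights, 0.195 without the GFP- sample numbered 3, range -0.404 to 0.195, and 0.0251 without both samples numbered 3) and Tgfb2 in aortic against GFP- cells (-0.0072 with array weights, -0.117 without the GFP- sample numbered 3, range -0.117 to 0.309, and -0.117 without both numbered 3).

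Against a log2 change of 1 (treat), 3 members passed at day 5 against day 0 (beside 4.76% of all probe sets), 6 in GFP+ against day 5 cells (6.3%) and 4 in GFP- against day 5 cells (3.29%). In aortic cells 3 passed against GFP+ cells (6.81%) and 4 against GFP- cells (8.43%). Treat passed 0 between the sorts (beside 0.123%, and 0 at an unadjusted treat p under 0.05 as well, 4 by limma's plain test), since treat asks for a larger change. Between the sorts, 1 member passed in the fit of those groups alone (beside 1.82%) and 7 with array weights (11.7%), and leaving out 1 sample gave 1 to 4. The count over all probe sets between the sorts was 1142, and 459 in the fit of those groups alone, 2945 with array weights, 31 under treat, 653 without the GFP+ sample numbered 6 and 2130 with the replicate block in the day 13 samples alone. The fits with the replicate block also left out the aortic samples. In the fits of the cultured samples the part of each in a changed call cannot be told apart. Between the sorts, the day 13 samples alone gave 1 called member without the block and 6 with it. In the fits with the block the calls of Tgfb1i1 and Tgfbi between the sorts changed. So did that of Ltbp2 in GFP- against day 5 cells (adjusted p = 0.0247 as a fixed effect and 0.0492 as a random one). No other call of a member changed. No paired analysis was made for the aortic comparisons, since the labels give no pairing of primary aortic with cultured samples. The 1 number they share was not read as a pair. The causes were not tested.

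Median centring moved the median change of all probe sets to -0.11 in GFP+ and -0.13 in GFP- against day 5 cells, and members are read relative to shifts of that size. With 3 arrays a group and no presence calls, small changes and the lowest levels are the least certain.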
